A study of Mus musculus with 9 samples.

Results

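The SOCS family of feedback inhibitors was followed across 9 arrays of mouse fibroblasts of the 3T3 line, which grows without limit in culture, in 3 groups of 3 biological replicates. Its 8 members, Socs1 to Socs7 and Cish, were chosen by name as the genes for which the platform annotation gives a member's symbol alone to at least 1 transcript cluster, the set of probes that the array reads as 1 transcript. Where a symbol had several clusters, the cluster with the highest mean was used, and all 8 members were found among the 19698 genes tested. The first group was the unstimulated control (control_ns), the second the control treated with 5 ng per ml mouse TNF-alpha for 1 h (control_st), and the last the BAF knockdown, fibroblasts depleted of Brg1 and Brm under the same treatment (BAFkd_st). Brg1 and Brm, encoded by Smarca4 and Smarca2, are the alternative ATPases of the BAF chromatin remodelling complex. In the BAF knockdown a single hairpin RNA aimed at both transcripts was expressed from a U6 promoter in a retroviral vector that carries GFP, and transduced cells were sorted for bright GFP. The sources do not say what the control cells carried, and an unstimulated knockdown group was not analysed here, so the effect of the knockdown in resting cells cannot be told apart from its effect on the TNF response.

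SOCS proteins and CIS, the product of Cish, share a central SH2 domain, which binds phosphorylated tyrosines, and a C-terminal SOCS box, which recruits elongins and a cullin to form a ubiquitin ligase. Cytokine receptors activate JAK kinases, these phosphorylate STAT factors, and STATs in turn switch on several SOCS genes, whose products then dampen the same receptor. CIS, SOCS1, SOCS2 and SOCS3 are the members known for this cytokine feedback, while SOCS4 to SOCS7 are linked more to receptor tyrosine kinases and adaptor proteins. TNF itself signals mainly through NF-kB and stress kinases and reaches the JAK-STAT pathway chiefly through the cytokines it induces.

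Values are RMA signals on the log2 scale, so a difference of 1 is a doubling, and levels of different genes were not set against each other because probes differ in their response. Fold changes are 2 to the power of the difference. Array medians lay between 7.77 and 7.83 and pairs of arrays correlated at 0.992 to 0.998. A gene was called when its Benjamini-Hochberg adjusted p over all genes in limma was under 0.05. Replicates were made on different days and arrays with the same number deviated together, so each result was also fitted with that number as a block. In these bulk cultures fewer expressing cells and less RNA per cell cannot be told apart. Smarca4 was 1.11 ± 0.09 (SE) lower in the BAF knockdown than in the TNF-treated control (limma adjusted p = 0.00362), with single arrays at 10.50, 10.64 and 10.25 against a control mean of 11.57 ± 0.04 (SD, n = 3). Smarca2 was 0.36 ± 0.20 lower and was not called (limma adjusted p = 0.734, or 0.129 with the block). The paper reports that quantitative RT-PCR, a measure apart from these arrays, found both transcripts reduced in knockdown cells. Its reductions were larger than those on these arrays, which were 2.15-fold for Smarca4 and 1.29-fold for Smarca2. Of 12 fibroblast markers, 10 lay above the array median on all 9 arrays, whereas 15 of 16 leukocyte markers and 13 of 17 epithelial and endothelial markers lay below it on all 9.

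Among the feedback members, Cish had the largest difference after TNF. Its values were 8.002, 7.98 and 7.59 on the unstimulated control arrays, 8.41, 8.35 and 8.23 on the TNF-treated control arrays, and 8.12, 8.13 and 7.87 on the TNF-treated knockdown arrays. All TNF-treated control arrays lay above all unstimulated ones and above all knockdown arrays, while the knockdown and unstimulated arrays overlapped. In each group the array numbered 3 was the lowest. With group means of 7.86 ± 0.23, 8.33 ± 0.09 and 8.04 ± 0.15 (SD, n = 3), the levels ran in the order unstimulated, knockdown, TNF-treated control.

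The Cish difference after TNF was 0.48 ± 0.12 (SE), or 1.39-fold, with a 95% interval of 0.20 to 0.75. It was not called without the block (limma adjusted p = 0.676) and was called with it (SE 0.06, limma adjusted p = 0.0238). The arrays with the same number differed by 0.41, 0.37 and 0.65, higher in 3 of 3 pairs. The residual SD of Cish fell from 0.168 to 0.0756 when the block was added, against a median over all genes that went from 0.0922 to 0.0797. The call with the block was lost when the arrays numbered 1, 2 or 3 were left out (limma adjusted p = 0.810, 0.0846 and 0.266), and without number 1 that fit called 0 of all genes after TNF.

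Under the knockdown Cish was 0.29 ± 0.12 (SE) lower than in the TNF-treated control, or 1.22-fold lower, with a 95% interval of -0.56 to -0.02. This difference was not called, with a limma adjusted p of 0.544 without the block and 0.0507 with it. It was lower in 3 of 3 same-numbered pairs, by -0.29, -0.22 and -0.36. Against the unstimulated control, Cish in the TNF-treated knockdown was 0.19 higher and was not called (limma adjusted p = 0.600, or 0.155 with the block). The 95% interval was -0.09 to 0.46 without the block and 0.04 to 0.33 with it, and the same-numbered pairs differed by 0.12, 0.15 and 0.29, higher in 3 of 3. Without the unstimulated control array numbered 3, the lowest of the 9, the difference was 0.05.

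The promoter of Cish is shown because this was the member with a call after TNF, and that of Socs1 because its TNF-treated arrays also lay apart from the unstimulated ones. RefSeq promoter windows, on build GRCm38.p6, were used for 4 members (Socs1, Socs3, Socs4 and Cish). The search for member windows left out 1 chromosome, so it does not show that the other members had none. Each run gives the 250 bases before the annotated start, read 5′ to 3′ on the gene's strand, and capitals mark every match to the NF-kB-like pattern (GGG, any 5 bases, then CC) on either strand.
Cish, chr9:107296409-107296658, plus strand: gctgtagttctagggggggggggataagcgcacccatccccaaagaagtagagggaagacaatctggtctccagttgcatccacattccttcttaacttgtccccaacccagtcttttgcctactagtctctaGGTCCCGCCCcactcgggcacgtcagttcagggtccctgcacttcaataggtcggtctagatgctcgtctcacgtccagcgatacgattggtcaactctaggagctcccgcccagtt
Socs1, chr16:10785537-10785786, minus strand: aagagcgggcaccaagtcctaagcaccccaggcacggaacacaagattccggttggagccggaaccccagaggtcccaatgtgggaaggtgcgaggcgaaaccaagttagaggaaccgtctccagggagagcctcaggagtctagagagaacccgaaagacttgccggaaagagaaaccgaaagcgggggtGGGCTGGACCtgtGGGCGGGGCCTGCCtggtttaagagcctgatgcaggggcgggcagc
The Cish run holds 1 match, from -117 to -108 relative to the start, and the Socs1 run holds 3, of which 2 overlap and are joined in the second stretch of capitals. Such a match is common, since 45.8% of the 32851 RefSeq windows hold at least 1 over the same length. The STAT pattern TTCNNNGAA, held by 7.02% of windows, had no match in either run, nor did the AP-1 pattern TGANTCA, held by 6.75%. Of these 4 members Socs3 was the one with a STAT match, TTCTTAGAA from -154 to -146. Its window and that of Socs4 each held 1 NF-kB-like match. GC content over the 300-base window was 53.3% for Cish, 63.3% for Socs1, 70.7% for Socs4 and 73.3% for Socs3, against a median of 52.7% over all windows. The observed-to-expected ratio of CG dinucleotides was 0.521 for Cish, 0.614 for Socs1, 0.769 for Socs3 and 0.908 for Socs4, against a median of 0.384. A match is a description of letters, and no binding was measured on these arrays.

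**Figure D1:**
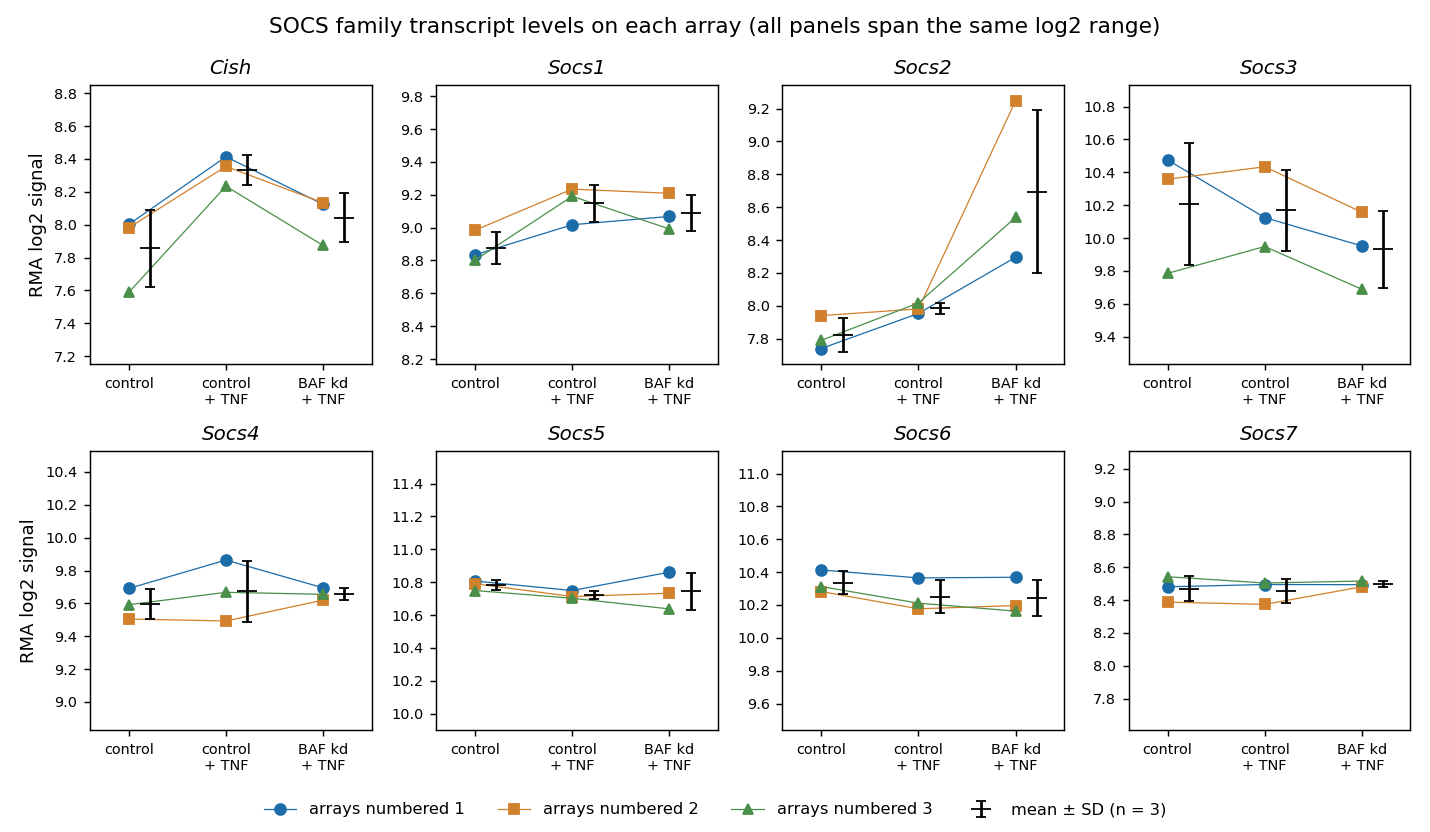
RMA log2 signal of the 8 SOCS members on each array (y axis, log2, with the same span in every panel) in the 3 groups (x axis), with coloured lines joining arrays of the same number and black bars giving the mean ± SD of 3 arrays. Cish sits highest in the TNF-treated control, Socs2 lies above both control groups on every knockdown array and furthest on the array numbered 2, and Socs4 to Socs7 stay nearly level.

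Socs1, a direct inhibitor of JAK kinases best known from interferon signalling, measured 8.83, 8.98 and 8.80 on the unstimulated control arrays, 9.02, 9.23 and 9.19 after TNF, and 9.07, 9.21 and 8.99 in the TNF-treated knockdown. Both TNF-treated groups lay wholly above the unstimulated control and overlapped each other. After TNF it was 0.27 ± 0.08 (SE) higher, or 1.21-fold, with a 95% interval of 0.09 to 0.46, and was not called (limma adjusted p = 1, or 0.202 with the block). The same-numbered pairs differed by 0.18, 0.25 and 0.39, higher in 3 of 3. The knockdown differed from the TNF-treated control by -0.06, with a 95% interval of -0.24 to 0.13. Against the unstimulated control the knockdown was 0.22 higher and not called (limma adjusted p = 0.333, or 0.0897 with the block).

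Socs2, which restrains growth hormone receptor signalling, was the member with the largest difference in the knockdown. Its values were 7.74, 7.94 and 7.79 on the unstimulated control arrays, 7.95, 7.98 and 8.02 after TNF, and 8.30, 9.25 and 8.54 in the TNF-treated knockdown. All knockdown arrays lay above all 6 control arrays, and the array numbered 2 stood far above the other knockdown arrays. The group means were 7.82 ± 0.10, 7.98 ± 0.03 and 8.69 ± 0.50 (SD, n = 3), and the TNF-treated control lay just above the unstimulated one, by 0.16 with a 95% interval of -0.30 to 0.62.

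In the knockdown Socs2 was 0.71 ± 0.20 (SE) higher than in the TNF-treated control, or 1.64-fold, with a 95% interval of 0.25 to 1.17. The difference was not called (limma adjusted p = 0.279, or 0.0595 with the block), although it was higher in 3 of 3 same-numbered pairs, by 0.34, 1.27 and 0.52. Without the knockdown array numbered 2 it was 0.43 (limma adjusted p = 0.0784), and without all arrays of that number it was 0.43 in the fit with the block and was called (limma adjusted p = 0.0420). That array was also the one on which Smarca4 was least reduced, at 10.64. Smarca2 at 9.38 was likewise highest there among the knockdown arrays. Yet its same-numbered difference was largest for number 2, at -0.43, against -0.39 for number 1 and -0.26 for number 3. The part of either target in the Socs2 value was not tested.

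Against the unstimulated control, Socs2 in the TNF-treated knockdown was 0.87 higher, or 1.83-fold, with a 95% interval of 0.41 to 1.33. This was not called without the block (limma adjusted p = 0.1002) and was called with it (limma adjusted p = 0.0199). It was also called without the knockdown array numbered 2, at 0.59 (limma adjusted p = 0.0177). The call with the block was lost when the arrays numbered 1 or 3 were left out (limma adjusted p = 0.185 and 0.141).

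Socs3, the feedback inhibitor of receptors that use gp130, was marked by a wide spread between replicate numbers. It measured 10.48, 10.36 and 9.79 on the unstimulated control arrays, 10.12, 10.43 and 9.95 after TNF, and 9.95, 10.16 and 9.69 in the TNF-treated knockdown. The 3 groups overlapped, and the array numbered 3 was the lowest of each. Adding the block brought the residual SD of Socs3 from 0.290 to 0.146. After TNF it differed by -0.04 with a 95% interval of -0.49 to 0.42, and the same-numbered pairs went both ways, at -0.35, 0.08 and 0.16.

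In the knockdown Socs3 was 0.24 below the TNF-treated control and was not called (limma adjusted p = 0.869, or 0.334 with the block). It was lower in 3 of 3 same-numbered pairs, by -0.17, -0.28 and -0.26, with a 95% interval of -0.69 to 0.22 without the block and -0.46 to -0.01 with it. A second, dimmer transcript cluster of Socs3 ranged from 8.06 to 8.63 and differed by -0.02 in the same comparison. The 2 clusters thus gave differences of unequal size, and their mean differed by -0.13. Single arrays also moved the value of the brighter cluster, to -0.10 without the TNF-treated control array numbered 2 and to -0.11 without the knockdown array numbered 3.

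The members linked to receptor tyrosine kinases and adaptors had the narrowest ranges. Socs4, which is linked to the EGF receptor, ranged from 9.49 to 9.86 over the 9 arrays, and Socs5, a close relative, from 10.64 to 10.86. Socs6, linked to receptor tyrosine kinases such as KIT, ranged from 10.16 to 10.41, and Socs7, which binds adaptor proteins, from 8.37 to 8.54. The groups of each of these 4 members overlapped in all 3 comparisons, and their differences lay between -0.09 and 0.08. In the knockdown comparison the 95% intervals ran from -0.22 to 0.19 for Socs4, from -0.11 to 0.16 for Socs5, from -0.18 to 0.16 for Socs6 and from -0.09 to 0.17 for Socs7. After TNF they ran from -0.13 to 0.28 for Socs4, from -0.20 to 0.07 for Socs5, from -0.25 to 0.08 for Socs6 and from -0.14 to 0.12 for Socs7. A doubling of any of these 4 members lay outside those intervals. Socs6 had 3 clusters, of which a second at 9.71 to 10.07 carried the same transcript accessions and the dimmest, at 4.43 to 4.80, lay far below the array median on all 9.

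**Figure D2:**
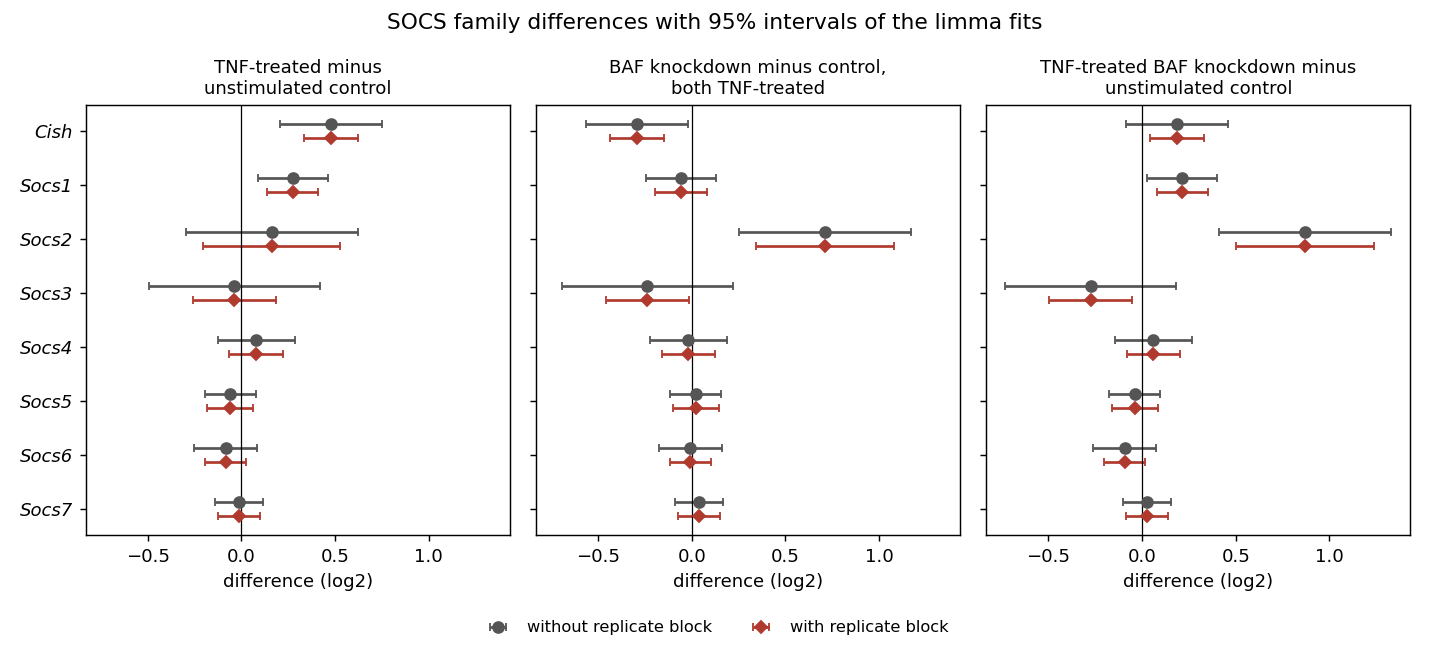
Differences in log2 signal (x axis) of each SOCS member (y axis) for the 3 comparisons, with 95% intervals from limma without the replicate block (grey circles) and with it (red diamonds). Cish after TNF and Socs2 in both knockdown comparisons lie furthest from 0, and the block narrows the intervals of Cish and Socs3 the most.

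Each count of members is given beside the share of all genes that met the same criterion. After TNF, 0 of 8 members were called without the block, where 0.137% of all genes were called, and 1 of 8 (Cish) with it, where 0.396% were. At an unadjusted limma p under 0.05 there were 2 of 8 (Socs1 and Cish), against 3.07% of all genes, and the methods' t-test with a difference over 0.35 picked 1 (Cish), against 0.584%. All 3 TNF-treated control arrays lay beyond all 3 unstimulated ones for 3 of 8 members (Socs1, Socs2 and Cish), against 5.97% of all genes, and all 3 were higher. The median difference of the members was 0.03, beside -0.00204 over all genes.

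In the knockdown against the TNF-treated control, 0 of 8 members were called either without the block (0.137% of all genes) or with it (3.31%). At an unadjusted limma p under 0.05 there were 2 of 8, Socs2 upward and Cish downward, against 8.43% of all genes, and the methods' t-test with a difference over 0.3 picked 0, against 2.20%. The groups did not overlap for the same 2 members, against 10.1% of all genes. The median difference of the members was -0.01, beside 0.01 over all genes.

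Between the TNF-treated knockdown and the unstimulated control, 0 of 8 members were called without the block (1.12% of all genes) and 1 (Socs2) with it (5.34%). There were 2 of 8 (Socs1 and Socs2) at an unadjusted limma p under 0.05, against 12.0% of all genes, 1 (Socs2) by the methods' t-test with a difference over 0.3, against 3.24%, and 2 (Socs1 and Socs2) without overlap of the groups, against 14.0%. The members' median difference was 0.04, beside 0.01. These 3 comparisons share groups, so their values stand side by side and were not combined.

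Most members shared a low replicate number across the groups. For 6 of 8, arrays of a single number were the lowest of all 3 groups, a pattern found in 20.6% of all genes. These were the arrays numbered 1 for Socs2, those numbered 2 for Socs4 and Socs7, and those numbered 3 for Socs3, Socs5 and Cish. The numbering has no order in itself, and the sources do not say that arrays with the same number in different groups were made on the same day.

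Around the inhibitors, 93 of 101 entries of 6 JAK-STAT lists were measured and 8 were not analysed here. List counts stand beside the shares of all genes called. With the block these were 0.396% after TNF, 3.31% in the knockdown and 5.34% for the knockdown against the unstimulated control. Without it they were 0.137%, 0.137% and 1.12%. Of 17 cytokines that signal through JAK and STAT, 0 were called after TNF without the block and 4 were higher with it. These were Lif (2.17), Il6 (1.81), Csf3 (1.21) and Tslp (0.76), ligands that act through gp130, the G-CSF receptor or the TSLP receptor (limma adjusted p with the block 0.00653, 0.00349, 0.0321 and 0.0383). The list's median difference was 0.08. In the knockdown 0 cytokines were called without the block and 2 were lower with it, Il6 by -0.96 and Il11, another gp130 ligand, by -0.73 (limma adjusted p with the block 0.0178 and 0.0442), and the list's median was 0.01. Against the unstimulated control the knockdown had 1 cytokine higher without the block, Lif by 2.85 (limma adjusted p = 0.0420), and 5 with it, among them Csf2 (1.94), which encodes GM-CSF, Tslp (0.89) and Il6 (0.86).

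Among 21 receptor subunits 0 were called after TNF in either fit, with Ifngr2, an interferon-gamma receptor chain, showing the largest difference at 0.24. In the knockdown 0 were called without the block and 3 were lower with it, the IL-13 receptor chain Il13ra1 (-0.60), the CNTF receptor Cntfr (-0.48) and the IL-4 receptor chain Il4ra (-0.36), at limma adjusted p with the block of 0.00356, 0.00347 and 0.0212. Cntfr was also lower than in the unstimulated control without the block, by -0.50 (limma adjusted p = 0.0395), and with the block 3 were lower and 1, Il15ra (0.33), was higher. Receptor medians were 0.03 after TNF and -0.03 in the knockdown.

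Of the 9 JAK kinases and STAT factors, 0 were called in any of the 3 comparisons in either fit. The largest differences were 0.40 for Jak2 after TNF and -0.23 for Stat3 in the knockdown, and 4 of 9 lay above 0 in each of those comparisons. Of 16 other negative regulators, such as phosphatases, PIAS proteins and adaptors, 0 were called without the block. With it 1 was called, the phosphatase Ptpn2, higher by 0.23 in the knockdown than in the unstimulated control (limma adjusted p with the block 0.0410). That fit called 5.34% of all genes in the same comparison. Usp18, which blunts interferon receptor signalling, had the largest difference after TNF (0.19), and Pias2 in the knockdown (0.16).

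The list of ubiquitin ligase parts that the SOCS box recruits and of linked enzymes, with 8 genes measured, had 0 calls in any comparison in either fit. Their largest differences were 0.18 for Ube2f after TNF and 0.09 for Rbx1 in the knockdown. Medians of this list were -0.03 and -0.02.

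STAT target genes other than the SOCS members were the list with calls after TNF in both fits. Of 22, 2 were called higher in both fits, the interferon regulatory factor Irf1 by 1.37 (limma adjusted p = 0.000329) and the AP-1 subunit Junb by 0.77 (limma adjusted p = 0.00931), and 20 of 22 differences lay above 0, with a median of 0.14. Many of these genes also respond to NF-kB, so the list does not read STAT activity alone. In the knockdown 0 were called without the block and 1 with it, Vegfa, the endothelial growth factor, lower by -0.33 (limma adjusted p with the block 0.0172). The fit with the block called 3.31% of all genes in the knockdown. The largest difference in that comparison was Ccnd1 at 0.50, which was not called, and 11 of 22 lay above 0. Against the unstimulated control, Irf1 (1.70) and Junb (0.61) were higher in both fits, and Igf1 (0.41) and Bcl3 (0.40) were higher with the block.

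Fibroblast markers had lower values in the knockdown, in the same comparison as the Socs2 and Cish differences. None of the 12 lay above 0 against the TNF-treated control, 0 were called without the block and 4 were lower with it, Dcn (-2.13), S100a4 (-1.18), Col3a1 (-0.93) and Pdgfra (-0.57). Of all genes, 0.137% were called without the block and 3.31% with it. The mean level of the 12 per array was 11.32 to 11.69 in the TNF-treated control and 10.85 to 11.20 in the knockdown, and the part of this in the member values was not tested. The mean level of the leukocyte markers stayed between 6.37 and 6.48, and that of the epithelial and endothelial markers between 7.12 and 7.28, over all 9 arrays, with 0 called in either fit.

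**Figure D3:**
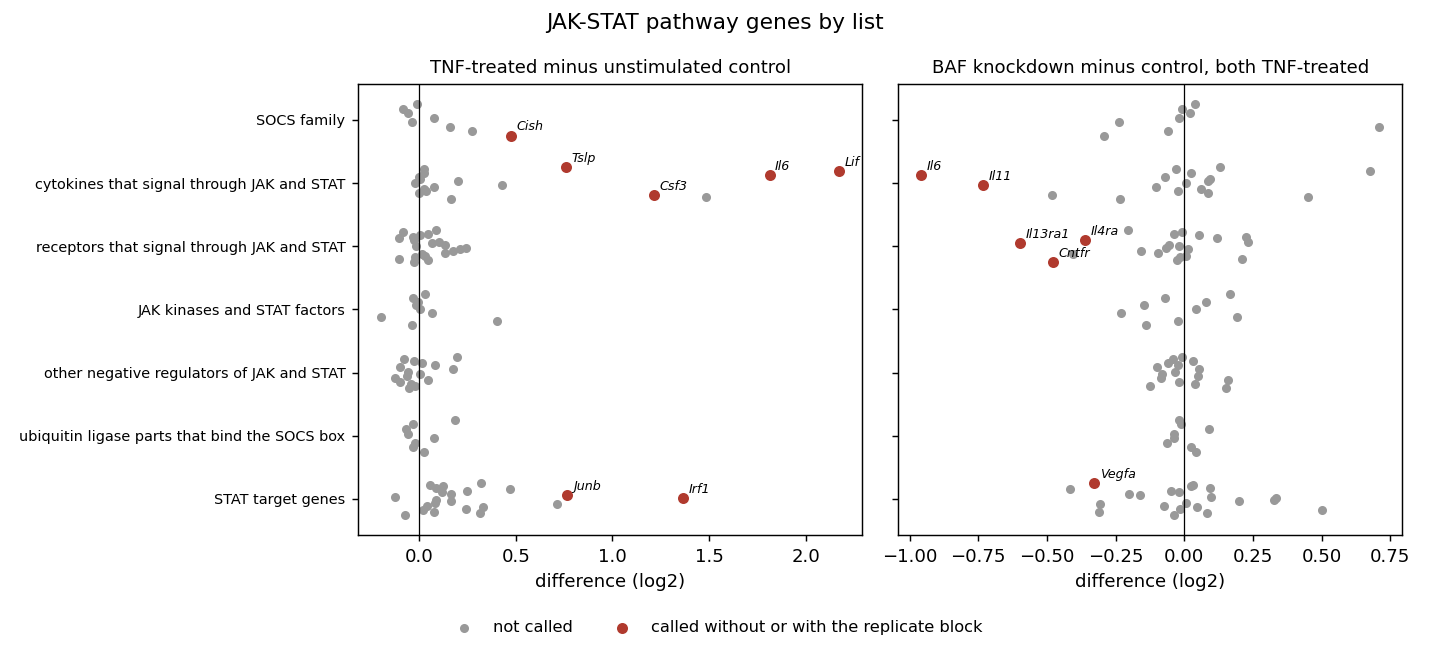
Differences in log2 signal (x axis, on separate scales) of the SOCS members and of 6 JAK-STAT gene lists (y axis) after TNF and in the knockdown, each point a gene. Red points with names were called by limma without or with the replicate block, and the cytokine list holds the largest differences, up to 2.17 for Lif after TNF and -0.96 for Il6 in the knockdown.

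The genes nearest in pattern to each called member were sought among all others, by the root mean square distance between values centred on their mean over the 9 arrays. For Cish they were Mdm2 (0.0962), Grasp (0.0966), Ell2 (0.104), Vegfa (0.107) and Pde4b (0.112), where the median distance over all genes was 0.254. After TNF these 5 differed by 0.31 to 0.48, and in the knockdown by -0.38 to -0.07. For Socs2 they were Kyat3 (0.193), Armcx3 (0.193), Chrdl1 (0.237), Arhgap18 (0.246) and Foxo1 (0.247), where the median was 0.455. These 5 were 0.47 to 0.91 higher in the knockdown than in the TNF-treated control and differed by -0.22 to 0.10 after TNF. Among the genes near Cish, Mdm2 encodes the ubiquitin ligase of p53, Ell2 a transcription elongation factor and Pde4b a cAMP phosphodiesterase. Among those near Socs2, Foxo1 encodes a forkhead transcription factor and Chrdl1 a BMP antagonist. All distances are over the same 9 arrays, so the likeness of these genes' group differences to those of the member follows from how they were picked. The distances also include deviations that arrays of a number share.

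**Figure D4:**
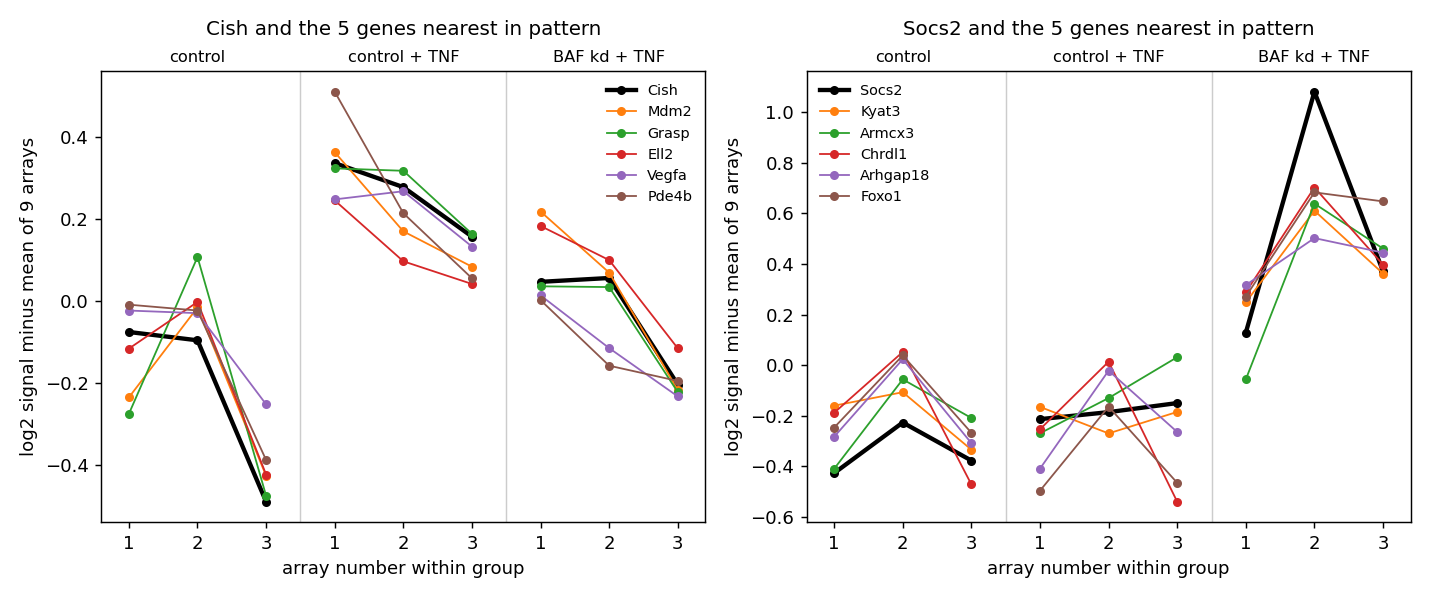
Log2 signal minus the mean of the 9 arrays (y axis) on each array, numbered within its group (x axis), for Cish and Socs2 (black) and the 5 genes nearest to each; lines join a gene's values within a group and stand for no order. The genes near Cish share its low values on arrays numbered 3, and none of those near Socs2 goes as high as Socs2 on the knockdown array numbered 2.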

How the data were processed

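Total RNA of 9 cultures of 3T3 fibroblasts was measured by the study on Affymetrix Mouse Gene 1.0 ST arrays. The deposited values are log2 signals that the authors made with RMA, per the labels; its version and the genome build of the probes are not given in the sources used here. The platform annotation gave 1 symbol to 21319 of 27024 transcript clusters, several to 1430 and none to 4275, and the brightest cluster stood for each of 930 genes with several. Equal values on at least 2 arrays occurred in 50.9% of clusters, and 0 pairs of arrays were identical. The number of arrays limits the precision.

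The 3 group means were fitted with limma 3.58.1 in R 4.3.3 (6 residual degrees of freedom, 4 with the replicate block), without a filter, and p-values were adjusted by Benjamini-Hochberg over 19698 genes. Per the methods, replicates were made on different days, without saying which arrays shared one. Deviations from the group means correlated at 0.172 to 0.622 over the 9 pairs of arrays with the same number, so the number was used to pair arrays. Over the 18 other pairs they correlated at -0.513 to -0.0459. Deviations cancel out within a group, so this negative range follows in part from the positive one and is no separate support. The t-test was Student's test, unadjusted and counted in either direction, with the size thresholds given beside its counts. The methods name it for the TNF response, where they count increases. For BAF dependence they give a size alone, so its use with the knockdown was a choice made here. The fit without the block was tested on simulated arrays with independent noise. The fit with the block was not tested in this way.

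All 8 members are named. From each list the text names up to 4 called genes per comparison, or otherwise the gene with the largest difference, and for Socs2 and Cish the 5 nearest genes. The members and lists were chosen with earlier results of these data known. Alternatives were the block, each array left out, median centring, dim genes removed, array weights, only the groups compared, an intensity trend, cluster means and Student's t-test.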

Additional observations from a re-analysis of the deposited data

How the results depend on the processing

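Over 24 differences (8 members in 3 comparisons) and 20 alternatives each, 448 values kept their direction and their side of the threshold, 7 passed it and 25 changed sign. With the replicate block the count of called members went from 0 to 1 after TNF (Cish), stayed at 0 in the knockdown and went from 0 to 1 against the unstimulated control (Socs2). Over the 6 JAK-STAT lists, without the marker lists, the block moved the called genes from 2 to 6 after TNF and from 0 to 6 in the knockdown. Against the unstimulated control it moved them from 4 to 14. Student's t-test with its size threshold picked 1 member after TNF and 1 against the unstimulated control. Leaving out arrays gave 0 to 1 called members in the knockdown and 0 to 1 against the unstimulated control, where the 1 was Socs2 without arrays numbered 2. Sign changes were seen only in differences that were never called. With array weights Socs7 after TNF was 0.00188 and Socs5 in the knockdown -1.94e-05, and with the mean of clusters Socs6 in the knockdown was 0.00934. Leaving out arrays moved the values after TNF from -0.25 to 0.12 for Socs3, from -0.0159 to 0.17 for Socs4 and from -0.0540 to 0.0291 for Socs7. In the knockdown they moved from -0.12 to 0.0126 for Socs1, from -0.11 to 0.0765 for Socs4, from -0.0364 to 0.0755 for Socs5, from -0.0711 to 0.0489 for Socs6 and from -0.00252 to 0.0625 for Socs7. Against the unstimulated control they moved from -0.0973 to 0.0146 for Socs5 and from -0.0148 to 0.0626 for Socs7. The causes were not tested. Without dim genes 15595 genes were left and no member call changed.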
